A study of Homo sapiens with 18 samples.

Results

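Messenger RNA of 37 genes of the hypoxia response and of glycolysis was followed in sorted human lymphoma cells. The genes were taken by symbol from a table of 58735 genes, and all 37 were found. A group of 16 are targets of hypoxia-inducible factor (HIF) with functions outside glycolysis, and 21 encode glucose and lactate transporters, glycolytic enzymes and their regulatory kinases. Counts of all 37 passed the filter on low counts that left 20301 genes. The cells were OCI-Ly18, an established line of human diffuse large B-cell lymphoma that carried green fluorescent protein and grew under the skin of NSG mice, which lack T, B and NK cells. From day 3 after implantation, 3 mice (M_767, M_768 and M_774) received tazemetostat (EPZ6438), which blocks the histone methyltransferase EZH2, at 150 mg/kg daily by oral gavage for 14 days, and 3 mice (M_766, M_769 and M_770) received vehicle over the same 14 days. Every mouse then received CART19 cells, a T-cell product armed with a chimeric antigen receptor. The tumours were taken 11 days after that infusion and their fluorescent cells were sorted. Both groups therefore carry a CART19 exposure, a single tumour line stands for lymphoma, and whether dosing went on after the infusion is not stated.

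Each mouse gave 3 libraries lettered A, B and C, whose meaning is not stated, so the 3 libraries of each animal were added up, which leaves n = 3 mice in a group. Mouse sums held 59132193 to 69816184 counts in the tazemetostat group and 55712115 to 66053406 in the vehicle group. Levels are given as CPM, counts relative to the library total after scaling with TMM factors. The library M_768_C, from a tazemetostat mouse, stood apart with a TMM factor of 0.891, against 0.971 to 1.03 in the other 17. B-cell markers were present in every mouse, with MS4A1 at 374 to 389 CPM under tazemetostat and 249 to 390.1 CPM under vehicle, and PAX5 at 468 to 724 CPM under tazemetostat and 547 to 617 CPM under vehicle. CD79A lay at 275 to 316 CPM under tazemetostat and 259 to 302 CPM under vehicle. Of 12 T-cell markers CD3D and CD3G had no count in any library, and the list summed to 203 to 211 CPM under tazemetostat and 197 to 277 CPM under vehicle. IL7R alone made up 186 to 194 CPM of that sum under tazemetostat and 179 to 261 CPM under vehicle. TRAC lay at 11.7 to 13.2 CPM under tazemetostat and 9.12 to 13.4 CPM under vehicle. PRF1 had 3.66 to 3.95 CPM under tazemetostat and 3.62 to 5.21 CPM under vehicle. CD8A had 1.25 to 1.46 CPM under tazemetostat and 1.39 to 1.59 CPM under vehicle. CD3E, CD2, CD4, CD8B, GZMB and NKG7 were each at 0.163 CPM or less in every mouse. Summed stromal and endothelial markers stayed at 4.61 to 6.67 CPM under tazemetostat and 3.62 to 7.26 CPM under vehicle, with COL3A1 and CDH5 at 0. Myeloid markers summed to 1.0 to 1.44 CPM under tazemetostat and 1.08 to 1.37 CPM under vehicle, with FCGR3A at 0. Only the human genes were counted, so the host's own cells are not measured by these lists.

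In cells with enough oxygen, prolyl hydroxylases of the EGLN family mark the HIF alpha subunits for destruction by the VHL ubiquitin ligase. When oxygen is short the alpha subunit pairs with ARNT and binds DNA at short elements with the core letters ACGTG or GCGTG. Its targets raise oxygen supply through VEGFA, shift energy production towards glycolysis, remove mitochondria and, through EGLN1 and EGLN3, dampen the response itself. Solid tumours, xenografts included, often hold poorly perfused regions in which this programme is active, and glycolytic enzymes are also driven by MYC in B-cell lymphoma.

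The promoters of CA9, ADM and SLC16A3 are printed because these members varied most between the 6 mice among those with an entry in the RefSeq promoter table (build GRCh38.p14). Each stretch runs from 250 bases before to 50 bases after a RefSeq start on the + strand, and capitals mark ACGTG or GCGTG on either strand. CA9 lies at chr9:35673678-35673977, and its match reads CACGT, the reverse complement of ACGTG, beginning 18 bases before the start. ADM lies at chr11:10304823-10305122, inside the gene model that begins 393 bases upstream of the RefSeq start, and its match GCGTG begins 101 bases before that start. SLC16A3 lies at chr17:82228185-82228484 and these letters do not occur in that window. It is the RefSeq start, of 5 in the table, nearest to the start of the gene model used for counting, and 3 of the 5 windows of SLC16A3 do hold such letters.
CA9: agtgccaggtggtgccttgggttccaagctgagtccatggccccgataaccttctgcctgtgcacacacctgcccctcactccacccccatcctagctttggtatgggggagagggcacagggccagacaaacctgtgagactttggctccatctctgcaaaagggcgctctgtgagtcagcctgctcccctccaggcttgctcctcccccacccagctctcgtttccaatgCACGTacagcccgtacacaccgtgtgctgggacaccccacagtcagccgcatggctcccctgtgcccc
ADM: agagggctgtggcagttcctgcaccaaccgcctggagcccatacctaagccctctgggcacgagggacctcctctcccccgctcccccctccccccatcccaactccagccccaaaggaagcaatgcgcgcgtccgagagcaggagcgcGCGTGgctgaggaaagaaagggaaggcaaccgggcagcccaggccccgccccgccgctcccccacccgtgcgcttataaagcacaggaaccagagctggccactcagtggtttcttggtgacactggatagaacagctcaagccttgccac
SLC16A3: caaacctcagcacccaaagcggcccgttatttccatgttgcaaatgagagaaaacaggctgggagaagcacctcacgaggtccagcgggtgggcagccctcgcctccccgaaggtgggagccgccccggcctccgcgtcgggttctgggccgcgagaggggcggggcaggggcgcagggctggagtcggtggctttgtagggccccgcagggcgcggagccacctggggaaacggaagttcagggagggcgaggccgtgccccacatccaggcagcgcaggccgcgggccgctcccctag

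Over all 33 members in the promoter table, 42 of 57 windows (73.7%) held ACGTG or GCGTG on either strand, against 48.4% of all 35116 windows of this length. The share was 82.4% of 17 windows for the HIF targets and 70.0% of 40 windows for the transport and glycolysis genes. For ACGTG alone the shares were 58.8% of the HIF target windows, 40.0% of the glycolysis windows and 21.4% of all windows. The windows of a gene with several starts share sequence, and a match is a description, not a bound site.

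Set per kilobase of gene model, the members covered a wide span of levels. GAPDH, which oxidises glyceraldehyde phosphate, had a mean of 999 CPM per kb in tazemetostat tumours and 960 CPM per kb in vehicle tumours. It was followed by the enolase gene ENO1 with 505 CPM per kb under tazemetostat and 476 under vehicle. TPI1, the triose phosphate isomerase, had 302 CPM per kb under tazemetostat and 263 under vehicle, and LDHA, which makes lactate, had 250.2 under tazemetostat and 214 under vehicle. Among the HIF targets the highest level per kb was that of DDIT4, an inhibitor of the mTOR complex, with 71.6 CPM per kb under tazemetostat and 50.9 under vehicle. CA9, EGLN3, NDRG1, SLC16A3 and ENO2 were scarce, between 0.715 and 0.972 CPM per kb under tazemetostat and between 0.756 and 1.14 under vehicle.

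No member passed the threshold between tazemetostat and vehicle, in edgeR's quasi-likelihood test with Benjamini-Hochberg adjustment at 0.05. Of all genes tested, 0.0345% passed. The lowest adjusted p among the 37 was 0.36, for DDIT4. At an unadjusted p under 0.05, 8 members were higher and 0 lower under tazemetostat, where 3.34% of all genes were higher and 3.21% lower. DESeq2 called 1 member, DDIT4 (adjusted p = 0.0417), where it called 0.611% of all genes. The log2 fold change was positive for 30 of 37 members with a median of 0.17, against 48.1% of all genes and a median of -0.0091. Among the HIF targets it was positive for 14 of 16 (median 0.19), and among the transport and glycolysis genes for 16 of 21 (median 0.17). In sorted cells, a larger share of cells with the programme and more RNA per cell cannot be told apart.

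The HIF target median rested on M_768, while the glycolysis median moved with several mice. Without M_768 the median log2 fold change was 0.03 for the HIF targets, of which 10 were positive, and 0.08 for the transport and glycolysis genes, of which 15 were positive. Without vehicle mouse M_770 they were 0.29 and 0.24 for these lists. Without M_766 and without M_769 the glycolysis median was 0.11 and 0.10, with 17 and 14 positive. All 3 tazemetostat mice stood above all 3 vehicle mice for 6 members, VEGFA, ADM, P4HA1, P4HA2, DDIT4 and ALDOC, and below them for 0. Over all genes 6.58% stood above and 6% below in this way.

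**Figure D1:**
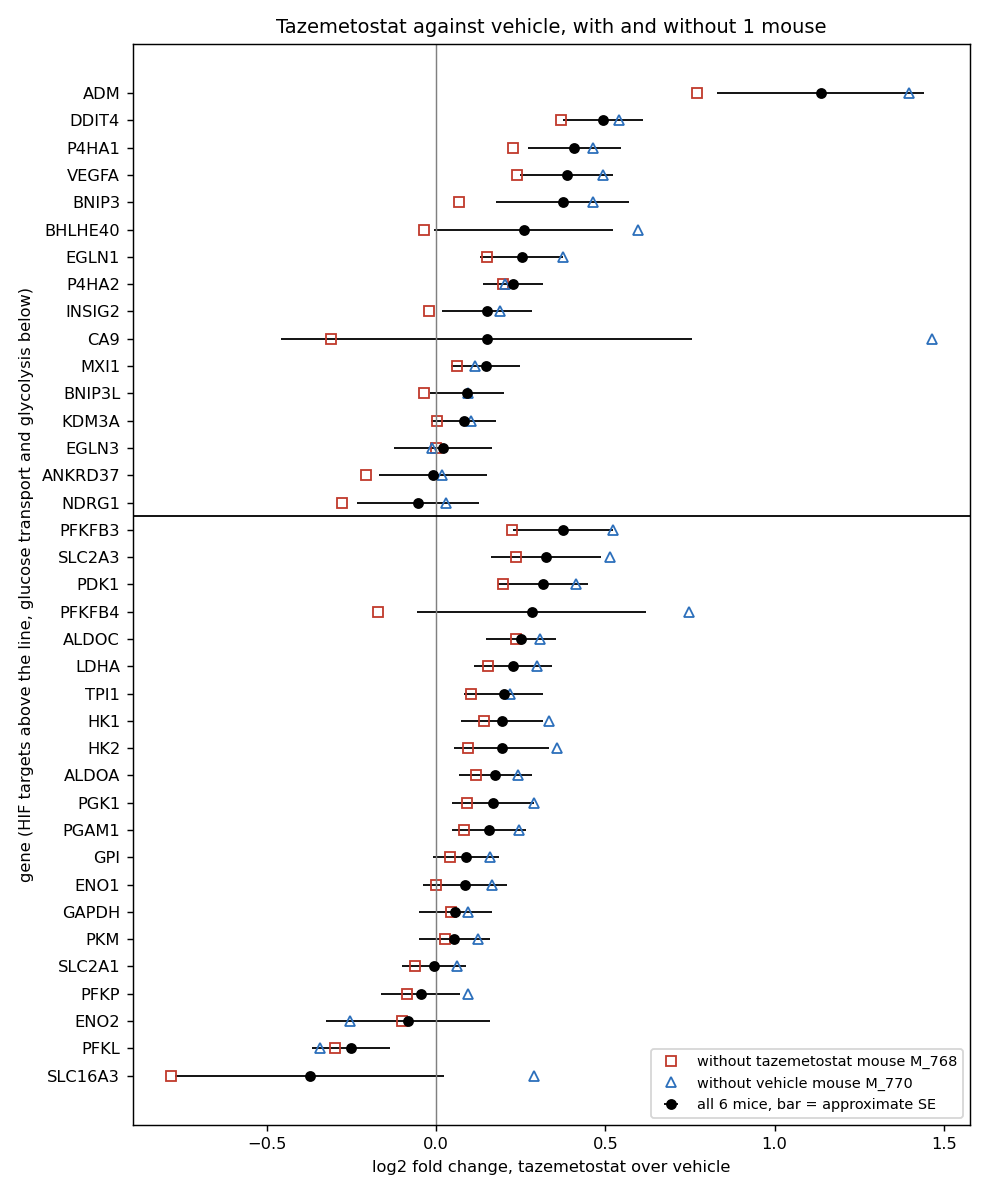
Log2 fold change of each of the 37 genes, tazemetostat over vehicle, with approximate SE from edgeR on 3 mice per group (black), and the same value without tazemetostat mouse M_768 (red squares) or without vehicle mouse M_770 (blue triangles). ADM stands furthest right at 1.14, and CA9, BHLHE40, PFKFB4, BNIP3L and INSIG2 fall to the left of 0 without M_768.

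Among the secreted and surface HIF targets, ADM, the vessel-dilating peptide adrenomedullin, was measured at 57.0, 94.9 and 44.7 CPM in tazemetostat mice M_767, M_768 and M_774, against 17.4, 32.7 and 39.4 CPM in vehicle mice M_766, M_769 and M_770. The groups did not overlap, and M_768 was high among the first while M_766 was low among the second. The log2 fold change was 1.14 (SE 0.306, edgeR adjusted p = 0.445) and stayed between 0.77 and 1.40 when any mouse was left out. VEGFA, the main growth factor of vessels, had 160.0, 215 and 165 CPM in the tazemetostat mice and 117, 139 and 156 CPM in the vehicle mice (log2 fold change 0.39, SE 0.138, adjusted p = 0.635). Here M_768 was again the highest and M_766 the lowest, and the remaining 4 mice lay within 139 to 165 CPM. CA9, a surface carbonic anhydrase widely used as a hypoxia marker, had 1.28, 2.5 and 1.07 CPM in the tazemetostat mice, against 0.447, 0.736 and 3.24 CPM in the vehicle mice. For CA9 the highest and the lowest mouse, 7.25-fold apart, both came from the vehicle group. Its exons share 38.5% of their bases with ARHGEF39 on the other strand, which had 16785 counts to 569 for CA9, so reads of the 2 genes cannot be told apart if strand was not used. ARHGEF39 itself lay between 39.1 and 44.4 CPM under tazemetostat and between 45.6 and 48.7 CPM under vehicle, and was not highest in M_768 or M_770.

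The oxygen sensor EGLN1, which hydroxylates HIF alpha, had 56.3, 71.4 and 60.5 CPM in the tazemetostat mice and 47.7, 49.4 and 60.9 CPM in the vehicle mice (log2 fold change 0.25, SE 0.122). The groups overlapped through M_770. EGLN3, a second hydroxylase of that family, stayed within 5.56 to 6.34 CPM under tazemetostat and 5.46 to 6.75 CPM under vehicle. KDM3A, a histone lysine demethylase, had 92.1, 112 and 99.9 CPM under tazemetostat and 96.9, 92.7 and 98.2 CPM under vehicle, and M_768 was the highest.

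BNIP3, which tethers mitochondria for removal by autophagy, had 103, 191 and 120 CPM in the tazemetostat mice, against 107, 94.1 and 118 CPM in the vehicle mice. The other 5 mice lay between 94.1 and 120 CPM, and the log2 fold change was 0.37 (SE 0.196) with it and 0.07 without it. Pseudogene rows of BNIP3 held 11.9% as many counts as the gene, so part of its reads may be placed elsewhere. Its relative BNIP3L had 97.9, 129 and 103 CPM under tazemetostat and 100.2, 107 and 103 CPM under vehicle. The collagen prolyl hydroxylase subunit gene P4HA1 had 61.9, 87.5 and 62.9 CPM in the tazemetostat mice and 54.9, 48.1 and 56.9 CPM in the vehicle mice (log2 fold change 0.41, SE 0.137, adjusted p = 0.589). P4HA2, the sister subunit, had 52.4, 55.9 and 52.8 CPM under tazemetostat and 49.3, 44.2 and 44.0 CPM under vehicle, a difference of 0.23 (SE 0.0881) on the log2 scale that kept the groups apart with little spread between the tazemetostat mice.

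DDIT4 had 125, 172 and 146 CPM in the tazemetostat mice, against 99.6, 104 and 111 CPM in the vehicle mice (log2 fold change 0.49, SE 0.118). Every tazemetostat mouse was above every vehicle mouse, and the value was 0.37 without M_768. DDIT4 is also a target of the stress and glucocorticoid responses, so it is not specific to oxygen. BHLHE40, a transcriptional repressor, had 26.2, 42.4 and 24.4 CPM under tazemetostat and 17.3, 24.0 and 36.5 CPM under vehicle, with M_768 and M_770 high. MXI1, a partner of MAX that opposes MYC, had 41.8, 52.3 and 46.4 CPM under tazemetostat and 42.4, 44.4 and 40.2 CPM under vehicle. INSIG2, a regulator of sterol synthesis, had 21.7, 30.2 and 22.1 CPM under tazemetostat and 22.1, 21.4 and 23.2 CPM under vehicle. NDRG1, a growth and stress gene, had 7.53, 12.3 and 8.83 CPM under tazemetostat and 9.96, 8.83 and 11.0 CPM under vehicle. ANKRD37 had 7.62, 11.0 and 7.59 CPM under tazemetostat and 8.91, 8.4 and 9.05 CPM under vehicle. In MXI1, INSIG2, NDRG1 and ANKRD37 alike, M_768 was the highest of the 6 mice and M_767 lay within or below the vehicle range. ANKRD37 shares 35.2% of its exon bases with UFSP2 on the other strand. UFSP2 lay between 15.4 and 17.4 CPM under tazemetostat and between 15.1 and 15.8 CPM under vehicle. It too was highest in M_768, so reads of UFSP2 may add to the level of ANKRD37 there if strand was not used.

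**Figure D2:**
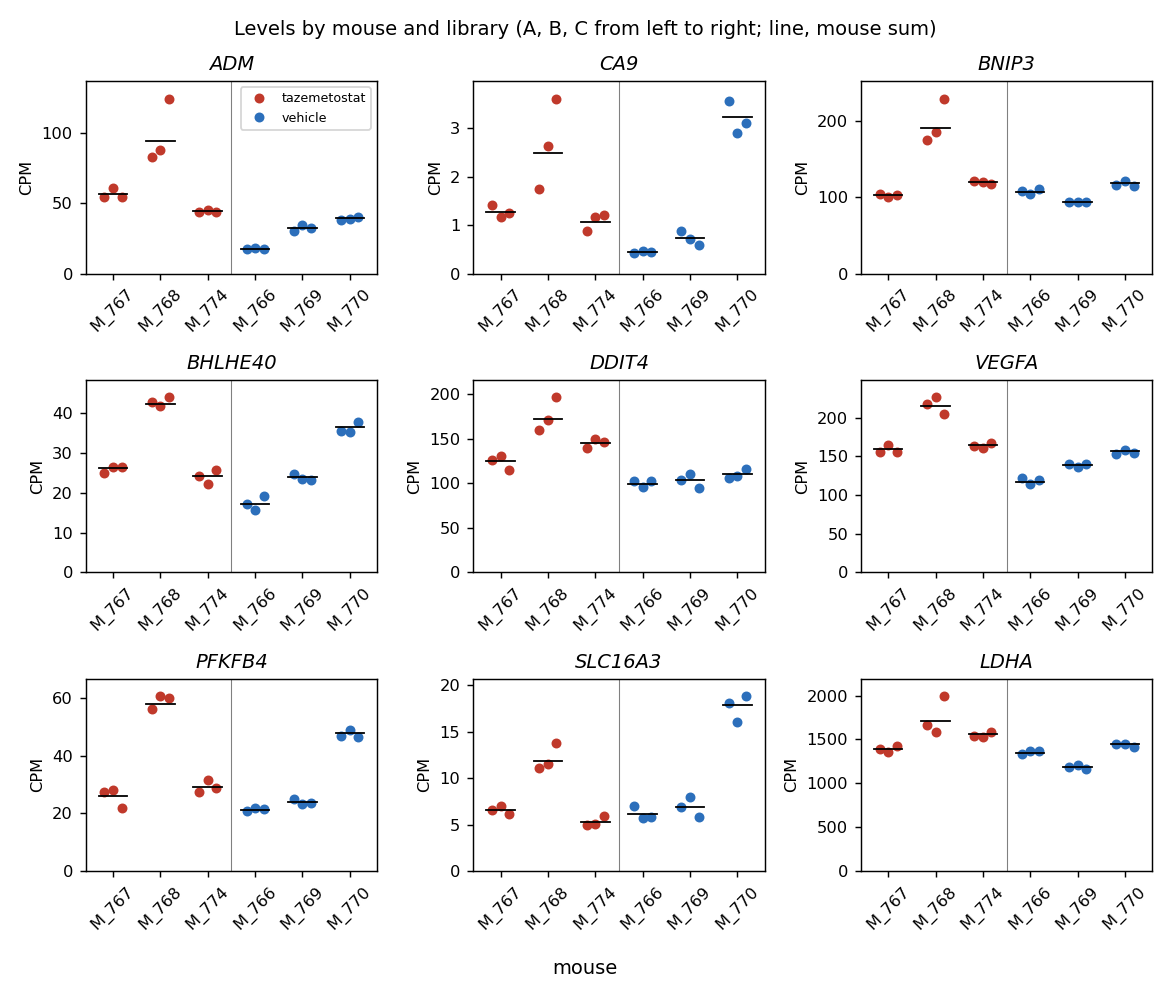
CPM of 9 genes in each library, with tazemetostat mice on the left and vehicle mice on the right, and a line at the level of the summed counts of each mouse. In ADM, DDIT4 and VEGFA the lines of the 3 tazemetostat mice lie above those of the 3 vehicle mice, while in CA9, BHLHE40, PFKFB4 and SLC16A3 the mice M_768 and M_770 stand above the others of their groups.

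Among the transporters, SLC16A3, which exports lactate, had 6.62, 11.9 and 5.30 CPM in the tazemetostat mice, against 6.12, 6.94 and 17.8 CPM in the vehicle mice. M_770 was highest, and the log2 fold change of -0.37 (SE 0.398) was 0.29 without it. SLC2A3, a high-affinity glucose transporter, had 10.9, 12.3 and 9.78 CPM under tazemetostat and 7.78, 7.66 and 10.9 CPM under vehicle (log2 fold change 0.32, SE 0.163). SLC2A1, the widely expressed glucose transporter, had 142, 162 and 147 CPM under tazemetostat and 143, 146 and 164 CPM under vehicle, a ratio of 1.15 between the highest and the lowest mouse.

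Hexokinase genes start the pathway. HK1 had 159, 171 and 148 CPM in the tazemetostat mice and 120, 135 and 164 CPM in the vehicle mice. HK2 had 193, 235 and 194 CPM under tazemetostat and 149, 176 and 219 CPM under vehicle. In both genes the highest vehicle mouse, M_770, reached into the tazemetostat range. The isomerase gene GPI had 480.2, 542 and 503 CPM under tazemetostat and 462, 452 and 522 CPM under vehicle. PFKP, the platelet form of phosphofructokinase, had 363, 389.5 and 353 CPM under tazemetostat and 337, 357 and 448 CPM under vehicle. PFKL, the liver form, had 332, 373 and 347 CPM in the tazemetostat mice and 479, 413 and 360.5 CPM in the vehicle mice (log2 fold change -0.25, SE 0.115, adjusted p = 0.763). Of the aldolase genes, ALDOC had 68.7, 74.1 and 75.1 CPM under tazemetostat and 65.0, 52.8 and 65.3 CPM under vehicle (log2 fold change 0.25, SE 0.103), with no overlap. ALDOA was listed at 19.0 to 21.6 CPM under tazemetostat and 16.1 to 19.2 CPM under vehicle. It shares 42.3% of its exon bases with AC093512.2 on the same strand, so its level is uncertain.

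Of the lower enzymes, all but ENO2 kept within a ratio of 1.19 to 1.44 between the highest and the lowest mouse. LDHA had 1396, 1708 and 1558 CPM in the tazemetostat mice and 1347, 1188 and 1449 CPM in the vehicle mice (log2 fold change 0.23, SE 0.116). TPI1 had 710.4, 924 and 814 CPM under tazemetostat and 758, 651 and 723 CPM under vehicle (0.20, SE 0.117). PGK1, the first enzyme of the pathway to yield ATP, had 617, 750.1 and 674 CPM under tazemetostat and 573, 545 and 701 CPM under vehicle. In these genes M_768 was highest and M_769 lowest. The mutase gene PGAM1 had 570, 670 and 588 CPM under tazemetostat and 541, 491 and 608 CPM under vehicle, ENO1 had 2358, 2970 and 2666 CPM under tazemetostat and 2524, 2247 and 2766 CPM under vehicle, and both kept that order. GAPDH had 2803, 3031 and 3098 CPM under tazemetostat and 3005, 2587 and 2996 CPM under vehicle. The pyruvate kinase gene PKM had 1718, 1882 and 1836 CPM under tazemetostat and 1742, 1595 and 1903 CPM under vehicle. GAPDH and PKM each kept within a ratio of 1.20 between the highest and the lowest mouse, less than the median of 1.44 over the 37 members. ENO2, the neuronal enolase, was scarce at 2.70, 3.14 and 3.34 CPM under tazemetostat and 4.59, 2.70 and 2.41 CPM under vehicle, where M_766 was highest.

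Among the regulatory kinases this ratio was 1.7 to 2.73. PFKFB4, which makes the fructose bisphosphate that activates phosphofructokinase, had 25.9, 58.1 and 29.1 CPM in the tazemetostat mice and 21.3, 24.0 and 47.8 CPM in the vehicle mice. A mouse in each group, M_768 and M_770, stood well above its companions, and the log2 fold change of 0.28 (SE 0.338) was -0.17 without M_768 and 0.75 without M_770. PFKFB3, of the same family, had 99.3, 136 and 105 CPM under tazemetostat and 74.8, 83.7 and 104 CPM under vehicle (0.37, SE 0.147, adjusted p = 0.678). PDK1, which holds pyruvate back from the mitochondria, had 68.7, 92.5 and 78.3 CPM under tazemetostat and 54.4, 66.1 and 72.1 CPM under vehicle (0.31, SE 0.133, adjusted p = 0.72). PFKFB3 and PDK1 each overlapped between the groups through M_770.

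**Figure D3:**
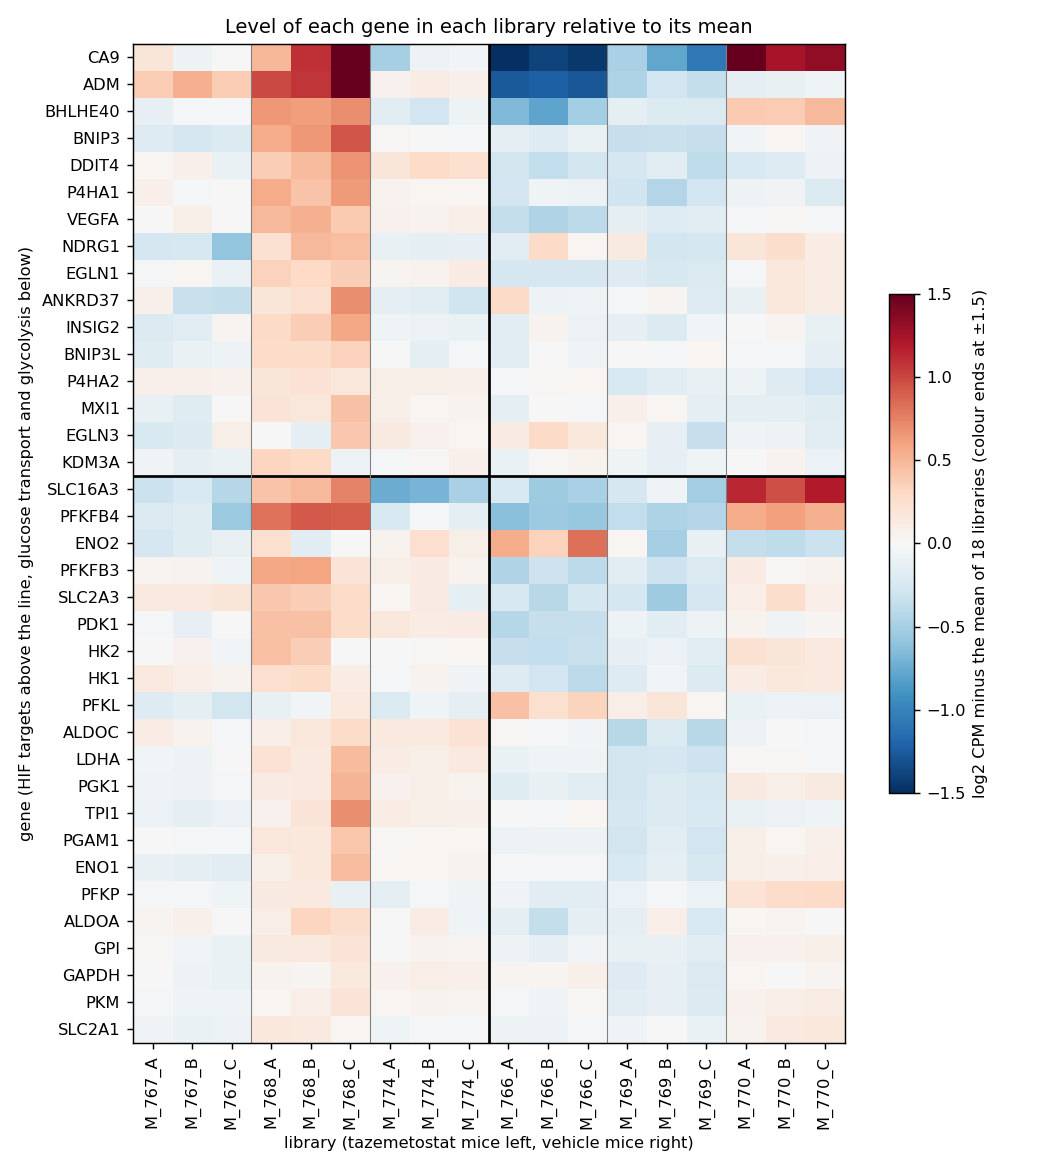
Level of each of the 37 genes (rows) in each of the 18 libraries (columns, tazemetostat mice left and vehicle mice right) as log2 CPM minus the gene's mean over the libraries. The 3 libraries of M_768 are red in most rows, and the libraries of M_770 are red in CA9, SLC16A3 and PFKFB4.

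More members passed the test between tumours of the same group than between the groups, in tests whose errors come from different sources. Among the 3 tazemetostat mice 25 of 37 members differed (edgeR quasi-likelihood test with 2 degrees of freedom on the libraries, Benjamini-Hochberg adjusted p under 0.05), against 6.04% of the 17867 genes tested. Among the 3 vehicle mice 27 of 37 differed, against 35.5% of all genes. These p-values measure only the spread between libraries of a mouse, which may be technical. By list, 13 of 16 HIF targets and 12 of 21 transport and glycolysis genes differed between tazemetostat mice, and 8 of 16 and 19 of 21 between vehicle mice. Without library M_768_C the first pair of counts was 14 of 16 and 17 of 21, and the difference between the lists was not tested. The smallest adjusted p between tazemetostat mice was that of PFKFB4 (4.31e-08), followed by BNIP3 (4.2e-07), and PFKFB4 also had the smallest between vehicle mice (1.26e-08). Calls over all genes also changed when libraries or mice were left out, not always in step with the count of members. Between tazemetostat mice the count was 31 without library M_768_C (18.4% of all genes), 0 without M_768 (1.83% of all genes) and 15 without M_767 (2.91%). It was 8 without the A libraries (0.48% of all genes) and 6 without the B libraries (0.359%). Between vehicle mice it was 11 without M_770 (20.8% of all genes), 13 without the A libraries (9.57%) and 14 without the B libraries (7.72%). It was 19 without M_766 (7.48% of all genes) and also 19 without M_769 (34.7%).

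M_768 was the highest tazemetostat mouse for 33 of 37 members, where it was so for 32.9% of all genes. The exceptions were EGLN3, ALDOC, GAPDH and ENO2, for which M_774 was highest. For 25 members every library of M_768 lay above all 6 other tazemetostat libraries, against 3.3% of all genes, and these were 14 of the 16 HIF targets and 11 of the 21 other members. M_770 was the highest vehicle mouse for 29 of 37 members, where it was so for 33.8% of all genes. For 21 members every library of M_770 lay above the other 6 vehicle libraries, against 10.2% of all genes, and these were 6 HIF targets and 15 transport and glycolysis genes. Both held for 17 members. M_768 and M_770 were singled out by the levels of these same members, so the counts here and in the pairs below describe that choice. The shares over all genes carry no such choice.

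Against M_767, tazemetostat mouse M_768 was higher for 26 members and lower for 0 in the edgeR test, where 3.86% of all genes were higher. All 37 had a positive log2 fold change, with a median of 0.51 for the HIF targets and 0.22 for the transport and glycolysis genes. PFKFB4 led with 1.19 (adjusted p = 1.78e-07), CA9 had 1.03 (0.0271), BNIP3 0.94 (4.46e-07), SLC16A3 0.88 (0.000971), ADM 0.80 (0.000336), NDRG1 0.74 (0.00525) and BHLHE40 0.72 (1.52e-05), each with its adjusted p in parentheses. Against M_774 it was higher for 15 members, 11 of them HIF targets, where 1.63% of all genes were higher, with medians of 0.45 and 0.21 for the same lists. Between M_774 and M_767 edgeR called 0 members, where 0.722% of all genes were called higher in M_774. At an unadjusted p under 0.05, 7 members were higher and 2 lower, where 7.48% of all genes were higher and 9.67% lower, and the medians were 0.06 and 0.08. Without library M_768_C, M_768 was higher for 28 members against M_767 (2.85% of all genes), 12 of them HIF targets and 16 transport and glycolysis genes, where with it they were 14 and 12. Against M_774 it was then higher for 22 (3.73% of all genes), 12 HIF targets and 10 transport and glycolysis genes. With that library they were 11 and 4. Without it, HIF targets were still the larger number of these calls against M_774, but no longer against M_767. The medians of M_768 were then 0.42 and 0.23 against M_767, and 0.41 and 0.14 against M_774.

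Vehicle mouse M_770 was higher than M_769 for 19 members and lower for 0, where 3.39% of all genes were higher. The HIF targets made up 4 of these (CA9, BNIP3, EGLN1 and BHLHE40), and the transport and glycolysis genes made up 15. The median log2 fold change was 0.14 for the HIF targets and 0.28 for the transport and glycolysis genes. CA9 had 2.12 (adjusted p = 4.61e-05), SLC16A3 1.36 (1.29e-06), PFKFB4 0.99 (3.9e-07), BHLHE40 0.60 (4.2e-05) and SLC2A3 0.50 (0.00478), with the adjusted p in parentheses. ADM had 0.27 (adjusted p = 0.161) and DDIT4 0.10 (adjusted p = 0.538) in this pair. Against M_766, M_770 was higher for 16 members, where 17.6% of all genes were higher. It was lower for PFKL, P4HA2 and ENO2, where 17.2% of all genes were lower. The higher members were 5 HIF targets and 11 transport and glycolysis genes, with list medians of 0.08 and 0.18. In this pair ADM had 1.15 (edgeR adjusted p = 7.45e-07), VEGFA 0.39 (2.04e-05) and DDIT4 0.13 (0.176). The value of ADM in M_770 thus depended on the vehicle mouse it was set against. M_769 was higher than M_766 for 5 members, HK2, VEGFA, PDK1, ADM and BHLHE40, where 11.8% of all genes were higher. It was lower for 6, GAPDH, LDHA, PFKL, ALDOC, P4HA2 and ENO2, where 8.97% of all genes were lower.

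**Figure D4:**
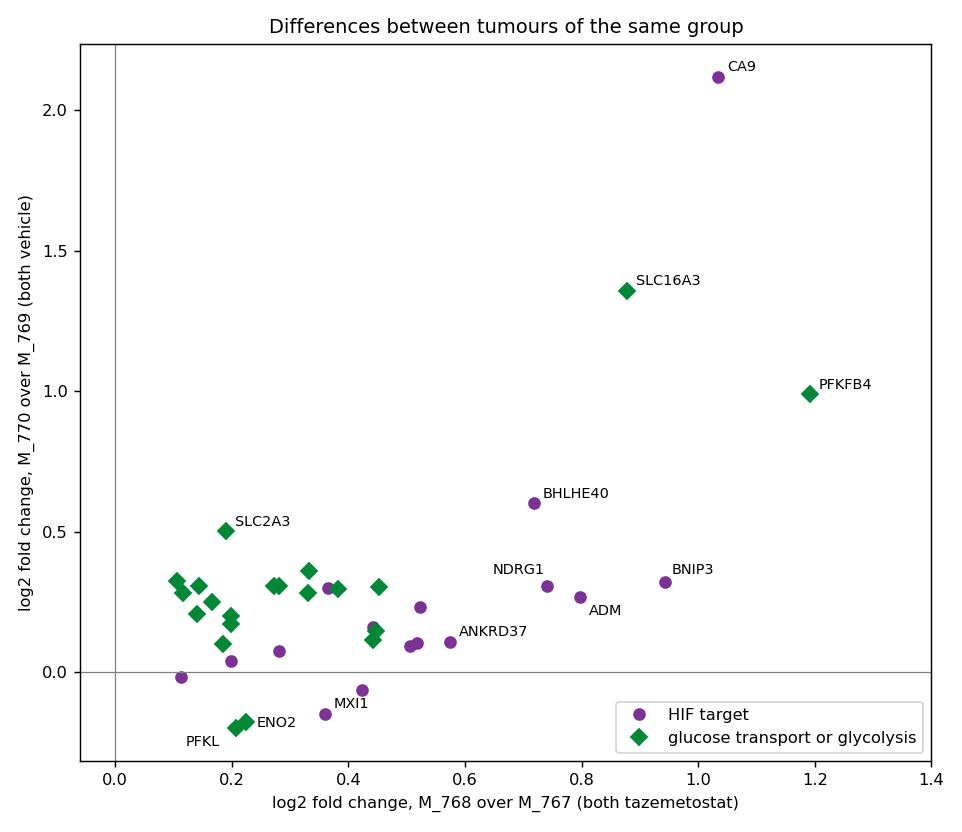
Log2 fold change of each of the 37 genes between tazemetostat mice M_768 and M_767 (horizontal axis) and between vehicle mice M_770 and M_769 (vertical axis), from edgeR on 3 libraries per mouse, with HIF targets as circles and transport and glycolysis genes as diamonds. CA9, SLC16A3, PFKFB4 and BHLHE40 lie high on both axes, while BNIP3, ADM and NDRG1 lie far right but at 0.32 or less on the vertical axis. For M_770 over M_766, which is not drawn, ADM had 1.15, BNIP3 0.12 and NDRG1 0.12.

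Set against the mean of the 6 mice, the median HIF target stood at -0.07 in M_767, 0.37 in M_768 and 0.03 in M_774, and at -0.12 in M_766, -0.16 in M_769 and -0.0059 in M_770, on the log2 scale. The median transport or glycolysis gene stood at -0.05, 0.21 and 0.03 in the same tazemetostat mice, and at -0.09, -0.19 and 0.08 in the same vehicle mice. Over all genes tested these medians lay between -0.0014 and 0.01. M_768 was thus the highest mouse by both lists, while M_770 was raised over the other vehicle mice more clearly by the transport and glycolysis genes than by the median HIF target. No test of the difference between the lists was run.

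No gene of the HIF machinery itself passed the test between tazemetostat and vehicle. Of 16 genes for HIF subunits, their regulators and partners, 15 were tested, and 8 had a positive log2 fold change, with a median of 0.0016. Calls were 0 by edgeR and 0 by DESeq2, and 1 gene was higher at an unadjusted edgeR p under 0.05. Over all genes 0.0345% were called by edgeR and 0.611% by DESeq2, and 3.34% were higher at that unadjusted p. HIF1A, the oxygen-regulated subunit, had 204, 178 and 201 CPM in the tazemetostat mice and 155, 163 and 183 CPM in the vehicle mice (log2 fold change 0.22, SE 0.0991, adjusted p = 0.762). M_768 was the lowest of the tazemetostat mice for HIF1A, while most of the members were highest there. CITED2, a HIF-induced competitor for the coactivator that HIF needs, had 0.39 (SE 0.109, adjusted p = 0.466), SIAH2, a ubiquitin ligase that acts on the EGLN proteins, had 0.18 (SE 0.0855), and ARNT2, an alternative partner of HIF alpha, had -0.32 (SE 0.15). Between mice of a group, 3 of the 14 machinery genes tested differed under tazemetostat (CREBBP, RBX1 and CITED2), where 6.04% of all genes did. Under vehicle 8 differed, where 35.5% of all genes did.

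Of 31 other genes known to be induced by hypoxia, 28 were tested, and 24 were positive with a median of 0.15. Calls were 0 by edgeR and 2 by DESeq2, with 7 higher and 0 lower at an unadjusted edgeR p under 0.05. Over all genes DESeq2 called 0.611%, and 3.34% were higher and 3.21% lower at that unadjusted p. AK4, a mitochondrial adenylate kinase, had 172, 189 and 171 CPM in the tazemetostat mice, against 101, 113 and 139 CPM in the vehicle mice (log2 fold change 0.60, SE 0.12, adjusted p = 0.226). Its groups did not overlap. TXNIP, a brake on glucose uptake, had 53.4, 52.4 and 64.9 CPM under tazemetostat and 44.8, 36.7 and 35.0 CPM under vehicle (0.55, SE 0.122, adjusted p = 0.321). TFRC, the transferrin receptor, had 0.29 (SE 0.0927) and GBE1, the glycogen branching enzyme, 0.33 (SE 0.107). Between mice of a group, 14 of these 28 differed under tazemetostat (6.04% of all genes) and 15 under vehicle (35.5% of all genes). Of 27 further genes of glucose metabolism, 20 were tested, and 13 were positive with a median of 0.05. Calls were 0 by edgeR and 0 by DESeq2, and 1 gene was higher at an unadjusted edgeR p under 0.05, against the same shares over all genes. Among those with the smallest p were SLC16A1, a monocarboxylate transporter, at 0.26 (SE 0.0874), MPC1 of the mitochondrial pyruvate carrier at 0.15 (SE 0.122) and PDHB of pyruvate dehydrogenase at -0.09 (SE 0.0899). MYC had 1172, 1200 and 1113 CPM under tazemetostat and 1120, 1142 and 1222 CPM under vehicle.

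Other stress lists were measured beside these genes. A list of 18 genes that respond to tissue dissociation had a median log2 fold change of 0.82, with 16 positive. At an unadjusted edgeR p under 0.05, 12 were higher, where 3.34% of all genes were. DESeq2 called 4, where it called 0.611% of all genes, and edgeR called 0. Its sum was 2142, 2322 and 1719 CPM in the tazemetostat mice, against 1112, 1544 and 1519 CPM in the vehicle mice, so M_768 was highest and M_766 lowest, as they were for ADM and VEGFA. M_770 did not stand out in that sum. Set against the mean of the 6 mice on the log2 scale, the median gene of this list gave another order. It stood at 0.49 in M_767, 0.49 in M_768 and 0.03 in M_774. In the vehicle mice M_766, M_769 and M_770 it stood at -0.98, -0.09 and -0.12. By that measure M_768 did not stand above M_767, unlike for ADM and VEGFA. A list of 10 integrated stress response genes had a median of 0.06 with 7 positive. The part of tissue handling in the levels of the hypoxia genes was not tested.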

How the data were processed

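Whole-number counts per gene were deposited by the authors in a table of 58735 genes and 18 libraries, without normalization. Gene length in bases was deposited by the authors in the same table (a value of another kind) and was used for levels per kilobase. Build hg38 and the tool DESeq2 are named in the submitters' processing notes. Aligner, counter, annotation and use of strand: not given in the sources used here. Every ID has the coordinates of GENCODE release 29.

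Libraries of a mouse were summed. Tazemetostat and vehicle were compared with edgeR 4.0.16 in R 4.3.3 (filterByExpr with its minimum count of 10, TMM factors, quasi-likelihood F test, Benjamini-Hochberg adjustment over 20301 genes, threshold 0.05). Mice of a group were compared on the 18 libraries with a coefficient per mouse (17867 genes). Fold changes are tazemetostat over vehicle, or the first-named mouse over the second, and the approximate SE is its size over the square root of F. Nothing says what the libraries of a mouse are. Chi-square tests separated all 18 same-mouse pairs of libraries (chi-square per degree of freedom 2.02 to 67.3), so none was counted as a repeat. The biological coefficient of variation was 0.14 between mouse sums and 0.0881 between libraries, and genes removed by the filter held 0.0602% of the counts.

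The members and lists were chosen with earlier results of these data known, so no p is given for a list. Values per mouse are given for members called in any test, the 2 of each role with the smallest p, and the 8 with the largest SD between mice. EGLN3 and ALDOA fall outside that rule and are given as ranges. Of each related list the 4 smallest p are named, except that some genes of these lists are not reported here. Alternatives were other scaling, filters, DESeq2 1.42.0, limma 3.58.1 (voom), left-out mice or letters, and library M_768_C left out. Each mouse left out of the comparison between mice was added after the data were seen. The fits were tested on simulated data. For the comparison between mice, the simulated libraries of a mouse varied less than the measured ones. That test therefore does not cover the calls between mice at the spread seen here.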

Additional observations from a re-analysis of the deposited data

Results flagged for a closer look

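Library M_768_C was the highest of the 9 tazemetostat libraries by a gap that was large for the spread of the group, in 6 of the 37 members. No vehicle library stood apart in this way in any of the 37. Chance gives about 1 in 20 only for independent sets of independent values. These sets share their libraries, and the 9 libraries of a set come from 3 mice, so that rate does not hold here. The gap to the nearest library, as a share of the whole range, was 0.528925 for ANKRD37, 0.678133 for TPI1, 0.652198 for PGK1, 0.600667 for PGAM1, 0.544303 for ENO1 and 0.515434 for LDHA, above the 95% critical value of Dixon's test for 9 values. Of these genes 5 are glycolytic enzymes. The other 2 libraries of the same mouse were not set apart in this way. Results between mice are given with and without this library above, and the part of the library in them was not tested.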

How the results depend on the processing

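The count of members called between tazemetostat and vehicle was 0 by edgeR under every scaling tried, under the filter on a mean CPM of at least 1, without library M_768_C, and without each mouse. It was also 0 by limma-voom on mouse sums. It was 4 with no filter on low counts (VEGFA, ADM, P4HA1 and DDIT4), where 0.685% of all genes were called, 1 by DESeq2 (0.611%) and 3 by limma-voom on libraries with a random effect of mouse (VEGFA, ADM and DDIT4), where 1.38% of all genes were called. With the library letter as a replicate block in that fit it was 2 (ADM and DDIT4), where 1.16% of all genes were called. Deviations of libraries with the same letter from different mice had a mean correlation of -0.0107 across genes over 45 pairs. For different letters it was 0.00542 over 90 pairs, so no pairing by letter was seen on average. The cause of these differences was not tested.

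Leaving out a mouse or a letter, the count between tazemetostat mice ran from 0 to 26 and the count between vehicle mice from 11 to 28. Leaving out the C libraries gave 26 and 28, where 12.4% and 42.6% of all genes were called.

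Some fold changes crossed 0 when a mouse was left out, and none of these was called. Their lowest and highest values were -0.31 and 1.47 for CA9, -0.78 and 0.29 for SLC16A3, -0.17 and 0.75 for PFKFB4, -0.035 and 0.60 for BHLHE40, -0.25 and 0.27 for ENO2, -0.28 and 0.094 for NDRG1, -0.21 and 0.083 for ANKRD37, -0.021 and 0.24 for INSIG2, -0.037 and 0.17 for BNIP3L, -0.12 and 0.093 for PFKP, -0.063 and 0.063 for SLC2A1, -0.0091 and 0.10 for GAPDH, and -0.0065 and 0.12 for PKM. For EGLN3, at 0.021 with all mice, the lowest and highest values with a mouse left out were -0.035 and 0.13. With no filter ANKRD37 was at 0.00196 and SLC2A1 at 0.0039. Without library M_768_C SLC2A1 was at 0.0113 and EGLN3 at -0.0198. EGLN3 was not followed under the other settings. Under the settings that left out no mouse, 337 further values of named members kept their direction and their call, and 10 became called.

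With 3 mice a group the size of a difference between treatments is limited by the spread between tumours. Scarce members such as CA9 rest on few counts (569 in all libraries).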
